A study of Mus musculus with 4 samples.

Results

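Genes of membrane transporters and ion channels were taken from a deposited table that compares mouse embryonic stem cells with and without CID755673, an inhibitor of protein kinase D. They were found by symbol: solute carriers (Slc and Slco), ATP-binding cassette transporters (Abc), genes whose symbol starts with Atp and a digit, potassium (Kcn), sodium (Scn) and calcium (Cacn) channels, and TRP, chloride (Clcn) and water (Aqp) channels. The table holds 1593 genes, and 55 had such a symbol. The rule dropped genes annotated to a few pathways, and 3 genes annotated to the serotonergic synapse, Cacna1s, Kcnj6 and Slc6a4, were left out for this, so that 52 remained. The 52 comprise 28 solute carriers, 4 ATP-binding cassette transporters, 7 Atp genes, 9 potassium channel genes and 4 genes of sodium, calcium and TRP channels.

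The cells were of the 46C line, a mouse embryonic stem cell line with a fluorescent reporter in the Sox1 gene. The medium of all cells contained serum, and for 24 h it also held PD0325901 at 1 µM, which blocks the kinase MEK. The 2 PD libraries received no further compound, and the 2 PC libraries also received CID755673, for which no source used here gives a dose. The controls therefore carry the MEK inhibitor too, and no library without it was analysed here. The libraries came from total RNA of a single cell line, and the labels do not say whether the 2 libraries of a group came from separate cultures. The p-values thus measure the spread between these libraries, which may be technical.

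Transporters move ions and nutrients across membranes. Secondary carriers, most of the solute carrier superfamily, use the gradient of another ion, often sodium, which ATP-driven pumps set up. Channels let ions flow down their gradient, and ATP-binding cassette transporters use ATP to export lipids, drugs and conjugates. Stem cells are known to depend on the import of glucose and amino acids.

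Values are normalized reads: read counts divided by 1 size factor per library, recovered from the deposited log2 values. They are not corrected for gene length. PC replicate 2 had the fewest reads on the 1593 listed genes, 433684, and PD replicate 2 the most, 683777. How deeply each library was sequenced is unknown, since other genes are not in the table. The authors' deposited table was limited to genes whose log2 fold change in this same comparison reached 1 in either direction, with a p no higher than 0.0498, out of 31432 genes tested. Of the 52 genes 10 lay within 0.1 of that fold limit. A listed gene therefore already differs between PC and PD by construction, and a transporter gene that is not listed is not analysed here. In all 52 genes both PC libraries lay on the same side of both PD libraries, as in 1588 of the 1593 listed genes (99.7%), so that this separation is a property of the table. The pluripotency genes Pou5f1, Sox2, Nanog, Klf4 and Esrrb are not listed, so that the labelled cell type could not be checked against them.

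Of the 52 genes 33 were lower and 19 higher in PC, and the median log2 change was -1.20. Over all listed genes 980 were lower and 613 higher, and the median was -1.17. limma with Benjamini-Hochberg adjustment over the 31432 tested genes called 21 of the 52 at an adjusted p under 0.05, the threshold used throughout: 12 fell and 9 rose. Among all listed genes 31.1% were called, 19.8% lower and 11.2% higher. The share called followed the level of expression. Of the 23 transporter and channel genes with a mean of at least 100 normalized reads 18 were called, against 62.0% of the listed genes at that level. Of the 29 with a lower mean 3 were called, against 12.6%. In bulk RNA, fewer cells of a type and less RNA per cell cannot be told apart, here or in any result that follows.

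The calls rest on all 4 libraries together. None of the 20 called genes with reads in both groups stayed called when any library was left out: the lowest adjusted p was 0.269 (limma, over the fits without PD replicate 1, PD replicate 2, PC replicate 1 or PC replicate 2). All 20 kept their direction, which the separation of the groups fixes. Such a fit takes the spread of the lone library to be that of the other group. With a pseudocount of 0.1 in place of 1 before taking logs, 6 of the 21 were no longer called, among them Slc5a11, Slc5a5, Slc19a3, Slc26a8 and Abcc2. With 1 prior for the spread at all levels of expression, limma called 0 of the 52. An unadjusted p under 0.05 was seen for 51, in a table that the authors had limited by p. By the false discovery rate in the authors' deposited table, 43 of the 52 passed 0.05, against 70.2% of all listed genes. These were 19 higher genes (26.4% of all listed) and 24 lower ones (43.9%), and all 21 limma calls were among them.

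**Figure D1:**
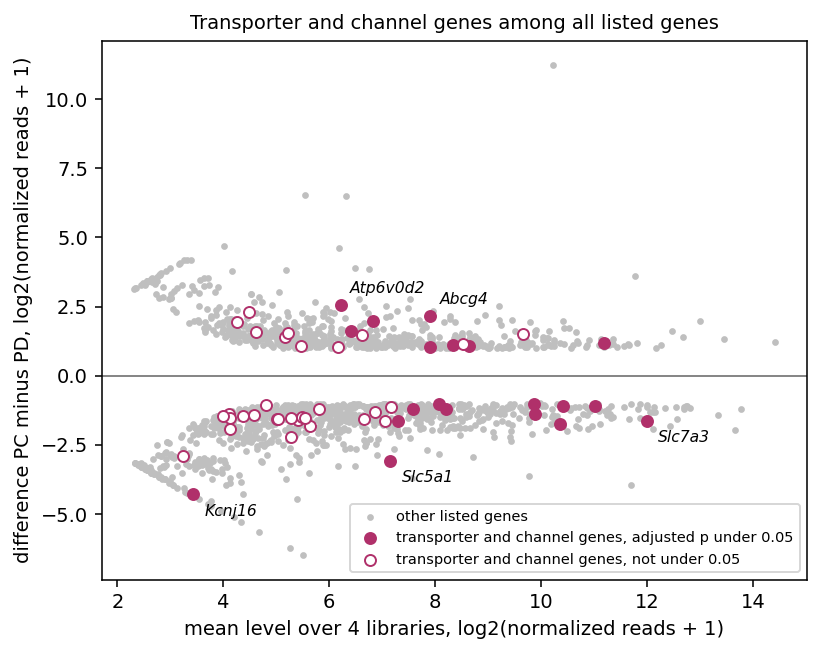
Difference between PC and PD against mean level, both on the log2(normalized reads + 1) scale, for the listed genes (grey) and 51 of the 52 transporter and channel genes (circles, filled where the adjusted p was under 0.05). The empty band around 0 is the authors' fold limit, and most filled circles lie at the higher levels.

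The sequences before the transcription start were compared between genes with lower and with higher values in PC, whether or not they passed the test. RefSeq windows on GRCm38.p6 were matched by symbol for 41 of the 52 genes, with 57 windows because some genes have several starts, and the 250 bases before each start were searched on both strands. The letters AGGTCA, a core element bound by nuclear receptors, occurred in 11 of 27 matched genes that were lower in PC and in 1 of 14 that were higher. Among called genes they occurred in 5 of 8 that fell and 0 of 5 that rose. Counted by window, so that genes with several starts weigh more, 11 of 41 windows of lower genes and 1 of 16 of higher genes held the letters. Among called genes these were 5 of 15 windows of those that fell and 0 of 5 of those that rose. Among all 32851 RefSeq windows, 14.0% held them. The genes that fell and held AGGTCA were Abcc2, Kcnj16, Slc27a2, Slc5a11 and Slc7a7, with Kcnj16 and Slc7a7 holding it before 1 of several starts. The letters CACGTG, an E-box, occurred in the window of Slc5a1 alone among the 41 genes, against 6.02% of all windows. TATAAA occurred in 2 of the 57 windows and 12.4% of all, ATGCAAAT in 1 and 1.60%, and CTTTGAT in 2 and 3.21%. The motifs were chosen with earlier results of these data known, and a match is a description of the letters, not a site. By the GENCODE M21 annotation most AGGTCA matches of the lower genes lie inside the genes, as given after the sequences.

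The windows of 3 genes that fell with AGGTCA, of Slc5a1 and of a gene that rose without any of these motifs are shown 5′ to 3′ as each gene is read, ending at the base before the start. Capitals mark AGGTCA or its reverse complement TGACCT, and CACGTG in Slc5a1. They lie at chr2:126552774-126553023 (plus strand) for Slc27a2, chr7:123214616-123214865 (plus strand) for Slc5a11, chr19:43782058-43782307 (plus strand) for Abcc2, chr5:33103969-33104218 (plus strand) for Slc5a1 and chr12:81333181-81333430 (minus strand) for Slc8a3.
Slc27a2: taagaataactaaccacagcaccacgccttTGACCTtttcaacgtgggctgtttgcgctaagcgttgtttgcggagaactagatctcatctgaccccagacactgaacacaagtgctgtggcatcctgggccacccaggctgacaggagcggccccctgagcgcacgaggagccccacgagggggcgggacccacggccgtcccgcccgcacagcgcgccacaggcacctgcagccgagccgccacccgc
Slc5a11: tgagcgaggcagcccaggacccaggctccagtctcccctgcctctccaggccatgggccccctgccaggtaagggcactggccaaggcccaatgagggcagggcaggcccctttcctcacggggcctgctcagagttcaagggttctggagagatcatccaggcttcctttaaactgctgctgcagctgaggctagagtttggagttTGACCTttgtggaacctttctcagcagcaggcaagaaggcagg
Abcc2: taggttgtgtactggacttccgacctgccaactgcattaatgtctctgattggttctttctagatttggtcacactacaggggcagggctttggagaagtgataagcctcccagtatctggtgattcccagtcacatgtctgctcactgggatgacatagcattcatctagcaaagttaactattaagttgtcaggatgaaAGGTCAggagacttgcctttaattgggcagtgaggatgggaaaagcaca
Slc5a1: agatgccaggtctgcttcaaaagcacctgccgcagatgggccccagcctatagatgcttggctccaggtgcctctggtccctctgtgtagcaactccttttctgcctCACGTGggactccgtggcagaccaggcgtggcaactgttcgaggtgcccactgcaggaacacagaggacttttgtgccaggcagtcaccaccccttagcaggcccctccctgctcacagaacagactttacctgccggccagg
Slc8a3: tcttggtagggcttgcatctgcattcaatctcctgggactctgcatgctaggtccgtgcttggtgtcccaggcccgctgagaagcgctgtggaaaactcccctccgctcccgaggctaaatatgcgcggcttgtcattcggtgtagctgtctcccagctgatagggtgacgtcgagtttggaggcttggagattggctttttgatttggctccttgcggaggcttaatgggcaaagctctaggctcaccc

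In these windows AGGTCA stands on the strand of the gene in Abcc2 and on the other strand in Slc27a2 and Slc5a11. Counted back from the RefSeq start, the first capital is at -49 in Abcc2, -43 in Slc5a11, -220 in Slc27a2 and -143 in Slc5a1. The GENCODE M21 annotation starts Abcc2 at 43782192, Slc5a11 at 123214780 and Slc27a2 at 126552407. By that annotation their AGGTCA matches lie inside the genes, not before them, as does that of Slc7a7. The same holds for the matches of Slc34a3, Slc22a14 and Slc6a13, which were lower but not called. Among lower genes, only the matches of Kcnj16, Kcnf1, Slc25a34 and Slc6a12 lie before the GENCODE starts. So does that of Atp2a1, the sole higher gene with a match. The windows of Slc5a1 and Slc8a3 also lie before the GENCODE starts.

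Among sugar and inositol carriers, 4 of 5 genes were lower in PC and 2 fell, against 61.5% and 19.8% of all listed genes. Slc5a1, the sodium-glucose cotransporter of intestine and kidney, was at 221 and 282 normalized reads in PD and fell to 34.8 and 23.8 in PC. Its means were 252 ± 43.3 and 29.3 ± 7.78 (SD, n = 2 each), an 8.59-fold ratio and the largest drop among the called genes with reads in both groups (log2 change -3.07, SE 0.28, limma adjusted p = 0.0147). It lies on chromosome 5 from 33104219 to 33162870 (GRCm38, GENCODE M21). Slc5a11, a sodium-coupled carrier of myo-inositol, was at 1123 and 1381 in PD and at 632 and 592 in PC (log2 change -1.02, SE 0.13, limma adjusted p = 0.0388). For both genes the PC libraries lay under both PD libraries.

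The other sugar carriers did not pass. Slc45a1, a proton-coupled sugar carrier of the brain, was at 134 and 165 in PD and 60.5 and 40.4 in PC (limma adjusted p = 0.103). Slc5a9, a sodium-coupled carrier of mannose and related sugars, was at 59.2 and 50.4 in PD and at 10.8 and 30.9 in PC, so that the PC libraries lay far apart. Slc2a12, a facilitative glucose carrier, was the sole gene of the group with higher values, 25.2 and 30.2 in PD against 59.7 and 58.3 in PC. Of 22 sugar carriers on a list drawn up for this comparison 5 were listed. The glucose carriers Slc2a1 and Slc2a3 are not analysed here.

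Because several of these carriers mark kidney or gut epithelium, markers of those cells were read beside them. Of 9 such markers 2 were listed, Pax8 and Cdx1, in opposite directions. Pax8 was at 103 and 139 in PD and 32.3 and 27.4 in PC, and Cdx1 at 78.5 and 83.4 in PD and 378 and 456 in PC. Both passed, Pax8 falling and Cdx1 rising. Of 10 extra-embryonic endoderm markers 2 were listed, summing to 210 to 221 in PD and 466 to 512 in PC, and of these Gata6 rose and Sox17 did not pass. Of 6 muscle markers 3 were listed (626 to 812 in PD against 294 to 304 in PC), of which Myh7 fell and Myh6 and Tnnt2 did not pass. Of 5 endothelial markers 2 were listed (3343 to 3527 against 1335 to 1499), of which Tek fell and Kdr did not pass. Of 7 fibroblast markers Col3a1 and of 7 trophoblast markers Gata3 were listed with lower values, and neither passed. Of 6 neural progenitor markers 0 were listed. No listed marker was at 0 in a library. The part of such cells in the transporter results was not tested.

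All 7 carriers of amino acids and related transmitters were lower in PC, and 3 fell. Over all listed genes 61.5% were lower and 19.8% fell. Slc7a3, which imports arginine and lysine, was at 5843 and 6441 normalized reads in PD and at 2136 and 1870.1 in PC. That is a log2 change of -1.62 (SE 0.11, limma adjusted p = 0.0125), from 6142 ± 423 to 2003 ± 188 (SD, n = 2 each). Slc7a7, the light chain of an exchanger of cationic for neutral amino acids, was at 1718 and 2342 in PD and at 589 and 613 in PC (log2 change -1.74, SE 0.17, limma adjusted p = 0.0162). Both genes serve cationic amino acids. Slc6a15, a sodium-coupled carrier of branched-chain amino acids and proline, was at 1328 and 1412 in PD and at 569 and 482 in PC (log2 change -1.38, SE 0.12, limma adjusted p = 0.0143).

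Per kilobase of annotated exon, Slc7a3 was the most abundant of the 52 transcripts in PD, with 1544 and 1702 normalized reads per kilobase. Slc7a7 was at 518 and 706. In PC Slc7a3 was at 564 and 494 and Abca3 at 336 and 349. The PC libraries of Slc5a11 (229 and 215) and Atp5s (216 and 214) were lower than these and overlap. These levels use the exons of GENCODE M21, while no source used here names the annotation the authors counted on.

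Slc7a10, a carrier of small neutral amino acids and D-serine, was at 23.3 and 23.8 in PD and at 6.63 and 10.7 in PC and missed the threshold (limma adjusted p = 0.481). Slc6a5, the glycine carrier of inhibitory neurons, had 44.6 and 50.4 in PD and 13.3 and 17.8 in PC (limma adjusted p = 0.219). The GABA and betaine carriers Slc6a13 and Slc6a12 are neighbours on chromosome 6, on the same strand and 5342 bases apart in GENCODE M21. Both were lower and neither passed. Slc6a13 was at 73.7 and 80.7 in PD and at 40.6 and 26.2 in PC. Slc6a12 had 13 and 19 reads in PD and 0 and 3 reads in PC, a ratio of PD to PC of 10.3 with an exact 95% counting interval from 3.22 to 52.5. Of 51 amino acid carriers on the list 5 were listed, 0 of them higher and 3 of them falling. Slc6a4, the serotonin carrier that the pathway rule left out, was also lower, at 42.7 and 40.3 in PD and 16.6 and 3.57 in PC (limma adjusted p = 0.541).

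**Figure D2:**
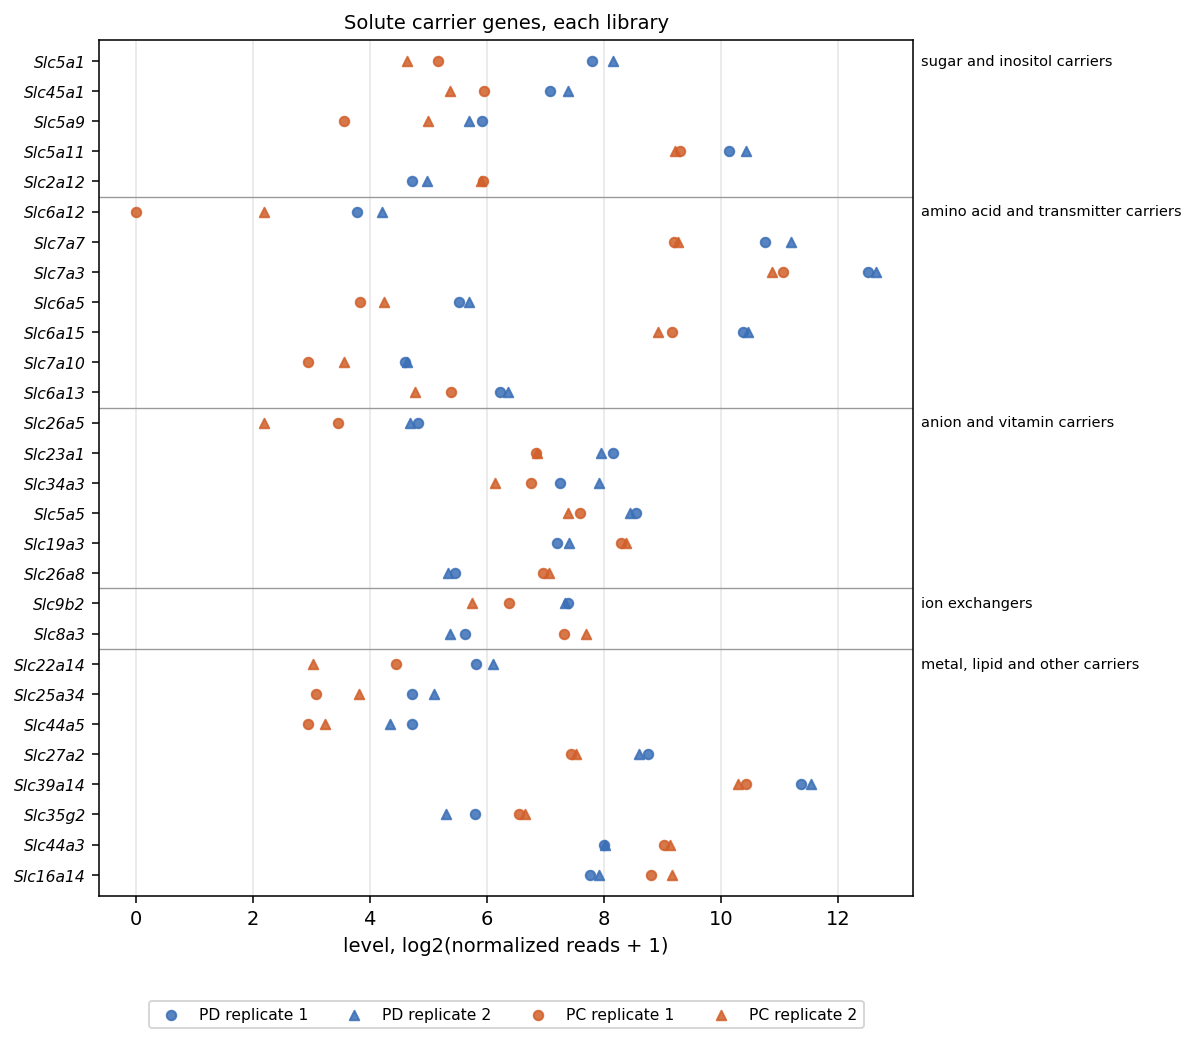
Level of each of the 28 solute carrier genes in each library, on the log2(normalized reads + 1) scale, with PD in blue and PC in orange and a marker shape for the replicate. All 7 amino acid and transmitter carriers have both orange points left of both blue points, and Slc6a12 is at 0 in PC replicate 1.

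Carriers of anions and vitamins moved in both directions. Of 6 genes 2 fell and 2 rose, against 19.8% and 11.2% of all listed genes. Slc23a1, a sodium-coupled carrier of vitamin C, was at 283 and 247 in PD and at 114 in both PC libraries (log2 change -1.21, SE 0.15, limma adjusted p = 0.0362). Slc5a5, the sodium-iodide symporter of the thyroid, was at 372 and 346 in PD and at 191 and 165 in PC (log2 change -1.01, SE 0.14, limma adjusted p = 0.0491), just under the threshold. Slc19a3, a thiamine carrier, went the other way from 145 and 168 to 312 and 332 (log2 change 1.04, SE 0.15, limma adjusted p = 0.0493), likewise just under it.

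The 2 listed carriers of the SLC26 anion exchanger family differed in direction. Slc26a8, an anion transporter of the testis, rose from 42.7 and 39.4 in PD to 123 and 132 in PC (log2 change 1.61, SE 0.22, limma adjusted p = 0.0427). Slc26a5, the motor protein prestin of outer hair cells, was lower at 9.94 and 3.57 in PC against 27.2 and 24.7 in PD and missed the threshold (limma adjusted p = 0.399). Slc34a3, a sodium-phosphate cotransporter of the kidney, was at 151 and 240.1 in PD and at 106 and 69.0 in PC (limma adjusted p = 0.408), with a wide spread in both groups.

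The 2 ion exchangers also differed in direction. Slc8a3, a sodium-calcium exchanger of nerve and muscle on chromosome 12 from 81197915 to 81333180, rose from 48.5 and 40.3 normalized reads to 157 and 205 (4.08-fold between means, SE of the log2 change 0.24, limma adjusted p = 0.0288). Slc9b2, a sodium-proton exchanger, was at 166 and 159 in PD and at 82.0 and 52.3 in PC and missed the threshold (limma adjusted p = 0.164).

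Of 8 carriers of metals, lipids and other substrates 2 fell and 1 rose, against 19.8% and 11.2% of all listed genes. Slc39a14, an importer of zinc, iron and manganese, was at 2651 and 2971 in PD and at 1374 and 1246 in PC (log2 change -1.10, SE 0.11, limma adjusted p = 0.0168). It was the 1 listed gene of 34 metal ion transporters. Slc27a2, which takes up and activates very long chain fatty acids, was at 429.6 and 386 in PD and at 171 and 183 in PC (log2 change -1.20, SE 0.13, limma adjusted p = 0.0237). Slc44a3, a choline transporter-like gene, rose from 256 and 258 to 520.3 and 559 (log2 change 1.07, SE 0.11, limma adjusted p = 0.0212), while its relative Slc44a5 was lower at 6.63 and 8.33 in PC against 25.2 and 19.2 in PD and did not pass.

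Slc16a14, an orphan of the monocarboxylate carriers, was at 216 and 240.1 in PD and at 443 and 571 in PC and missed the threshold (limma adjusted p = 0.0566). Slc35g2 was also higher without passing, 54.3 and 38.5 against 92.0 and 98.7. Slc22a14, of the organic ion carriers, was at 55.3 and 67.8 in PD and at 20.7 and 7.14 in PC (limma adjusted p = 0.289), and the mitochondrial carrier gene Slc25a34 at 25.2 and 33.0 in PD and 7.46 and 13.1 in PC. Of 38 mitochondrial and nucleoside carriers on a list drawn up for this comparison, which left out Ucp2 (described below), Slc25a34 was the 1 listed. Of 44 monocarboxylate and organic ion carriers on another such list, which left out Slc22a14, it was Slc16a14.

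All 4 listed ATP-binding cassette transporters passed, with 2 rising and 2 falling. All 4 had a mean of at least 100 normalized reads, a level at which 62.0% of all listed genes passed. The 2 that rose export lipids. Abca3, which loads phospholipid into the lamellar bodies of lung cells, went from 1499 and 1350.0 normalized reads in PD to 3152 and 3269 in PC (log2 change 1.17, SE 0.09, limma adjusted p = 0.0142). Abcg4, a sterol exporter of the brain, went from 98.9 and 75.2 to 366 and 415 (log2 change 2.16, SE 0.19, limma adjusted p = 0.0145), which is 4.49-fold. The libraries of a group differed much less: the means were 1425 ± 105 and 3210.3 ± 83.1 for Abca3 and 87.0 ± 16.8 and 391 ± 34.6 for Abcg4 (SD, n = 2 each).

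The ATP-binding cassette transporters that fell export drugs and conjugates. Abcb1a, a P-glycoprotein that expels hydrophobic drugs, was at 1729.9 and 1992 in PD and at 931 and 833 in PC (log2 change -1.08, SE 0.12, limma adjusted p = 0.0224). Abcc2, which exports glutathione and glucuronide conjugates into bile, was at 243 and 233 in PD and at 89.5 and 63.0 in PC (log2 change -1.65, SE 0.22, limma adjusted p = 0.0431). Of 44 genes on the list of this family these 4 were listed. Abcb1a has a close paralog, Abcb1b, which is not analysed here, and no source used here says how reads shared between them were counted.

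Of 7 genes with Atp symbols 6 were higher in PC and 3 rose. Of all 1593 listed genes 613 were higher, and 11.2% rose. Atp5s, an accessory factor of the mitochondrial ATP synthase, rose from 204 and 205 normalized reads to 441 and 435 (log2 change 1.10, SE 0.12, limma adjusted p = 0.0211), with the libraries of a group nearly equal. The 2 calcium pumps were higher but did not pass. Atp2b2, the plasma membrane pump of hair cells and neurons, was at 546 and 308 in PD and at 1181 and 1177 in PC (limma adjusted p = 0.108). Atp2a1, the reticulum pump of fast muscle, was at 21.3 and 16.5 in PD and at 53.0 and 48.8 in PC (limma adjusted p = 0.257).

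The proton pump of vesicles and lysosomes, the V-ATPase, is built of a membrane part and a cytosolic part, whose subunits have tissue-restricted variants. Of these variants 3 were listed, in both directions. Atp6v0d2, the membrane-part variant of osteoclasts and kidney, had 19.4 and 21.1 normalized reads in PD and 139 and 113 in PC. Its 6.23-fold ratio was the largest rise of the 52 (log2 change 2.57, SE 0.27, limma adjusted p = 0.0205), and it lies on chromosome 4 from 19876841 to 19922605. Atp6v1b1, the cytosolic-part variant of kidney and inner ear, was at 6.79 and 6.42 in PD and at 40.6 and 19.0 in PC and missed the threshold (limma adjusted p = 0.312). Atp6v0a4, the large membrane subunit of acid-secreting kidney cells, was lower, at 240.5 and 158 in PD and 53.0 and 73.8 in PC (limma adjusted p = 0.110). The PC libraries of Atp6v0d2 did not come near PD, whereas those of Atp6v1b1 lay far apart.

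**Figure D3:**
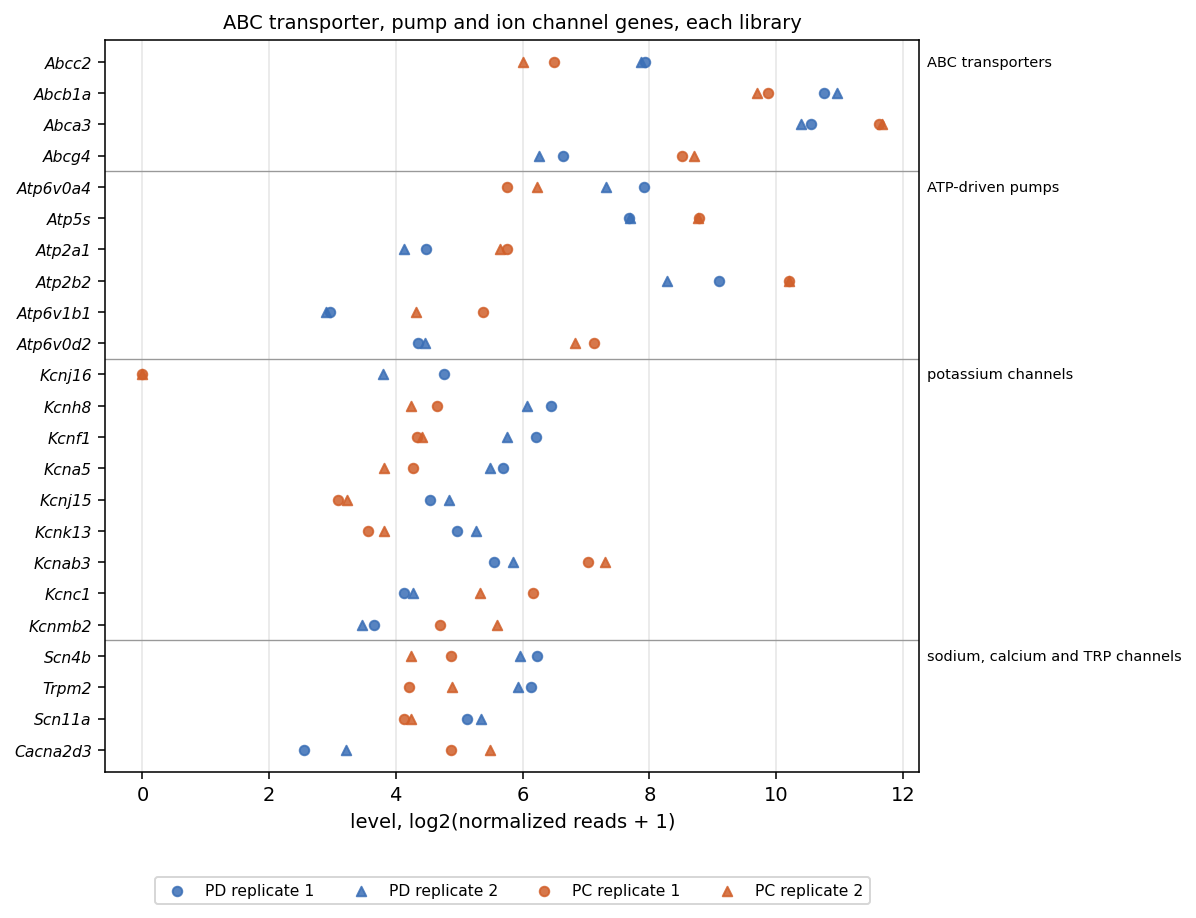
Level of 23 ATP-binding cassette transporter, pump and ion channel genes in each library, on the log2(normalized reads + 1) scale, with PD in blue and PC in orange and a marker shape for the replicate. The orange points of 5 of the 6 Atp genes shown lie right of the blue ones, and Kcnj16 is at 0 in both PC libraries.

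Of 9 potassium channel genes 6 were lower and 3 higher in PC, and 1 passed. Over all listed genes 61.5% were lower and 31.1% passed. Kcnj16, an inward rectifier subunit of kidney and glia, had 27 and 14 reads in PD and 0 reads in both PC libraries. Against a floor of 3 reads per library it was at least 6.44-fold lower (limma adjusted p = 0.0211), and the call was lost without PC replicate 1 or PC replicate 2. The other inward rectifier, Kcnj15, was at 22.3 and 27.5 normalized reads in PD and at 7.46 and 8.33 in PC. Kcnj6, which the pathway rule left out, went against them: it had 0 reads in both PD libraries and 11.6 and 9.52 normalized reads in PC (limma adjusted p = 0.0157).

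The remaining potassium channel genes with lower values were voltage-gated or leak channels, and none of them passed. Kcnh8, of the ether-a-go-go family, was at 86.3 and 66.0 in PD and at 24.0 and 17.8 in PC (limma adjusted p = 0.112). Kcnf1, a silent subunit that modifies other channels, was at 72.7 and 53.2 in PD and at 19.1 and 20.2 in PC. Kcna5, a delayed rectifier of the atrium, was at 50.4 and 44.0 against 18.2 and 13.1, and Kcnk13, a background leak channel, at 30.1 and 37.6 against 10.8 and 13.1. These genes had at most 89 reads in a library, and their adjusted p ran from 0.112 for Kcnh8 to 0.327 for Kcnk13 (limma).

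Higher values were seen for 2 auxiliary subunits and 1 pore subunit, again without a call in the main limma fit. With limma voom on the read counts, Kcnab3 was called and the others were not. Kcnab3, a cytosolic beta subunit, was at 45.6 and 56.8 in PD and at 130.1 and 156 in PC (limma adjusted p = 0.0717). Kcnc1, a fast delayed rectifier of rapidly firing neurons, was at 16.5 and 18.3 in PD and at 70.4 and 39.3 in PC, and Kcnmb2, a beta subunit of calcium-activated channels, at 11.6 and 10.1 against 24.9 and 47.6. Of 90 potassium channel genes on the list 10 were listed, counting Kcnj6.

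Of the 4 genes of sodium, calcium and TRP channels limma called 0, against 31.1% of all listed genes, and voom called 0 as well. All 4 had an unadjusted p under 0.05, as had 1541 of the 1593 listed genes, which the authors had selected by p. By the authors' false discovery rate, 3 of the 4 passed 0.05, against 70.2% of all listed genes. Scn4b, a beta subunit of sodium channels, was at 73.7 and 61.4 in PD and at 28.2 and 17.8 in PC (limma adjusted p = 0.230), and Scn11a, the pore subunit of pain-sensing neurons, at 33.9 and 39.4 against 16.6 and 17.8. Trpm2, a cation channel opened by ADP-ribose, was at 68.8 and 59.6 in PD and at 17.4 and 28.6 in PC. Cacna2d3, an auxiliary subunit that carries calcium channels to the surface, was higher, at 4.85 and 8.25 in PD and 28.2 and 44.0 in PC (limma adjusted p = 0.154). Cacna1s, left out by the pathway rule, was lower at 40.6 and 36.9 against 99.9 and 90.7 (limma adjusted p = 0.118). Of 41 TRP, chloride and water channels on the list Trpm2 was the 1 listed, so that chloride channels and aquaporins are not analysed here.

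**Figure D4:**
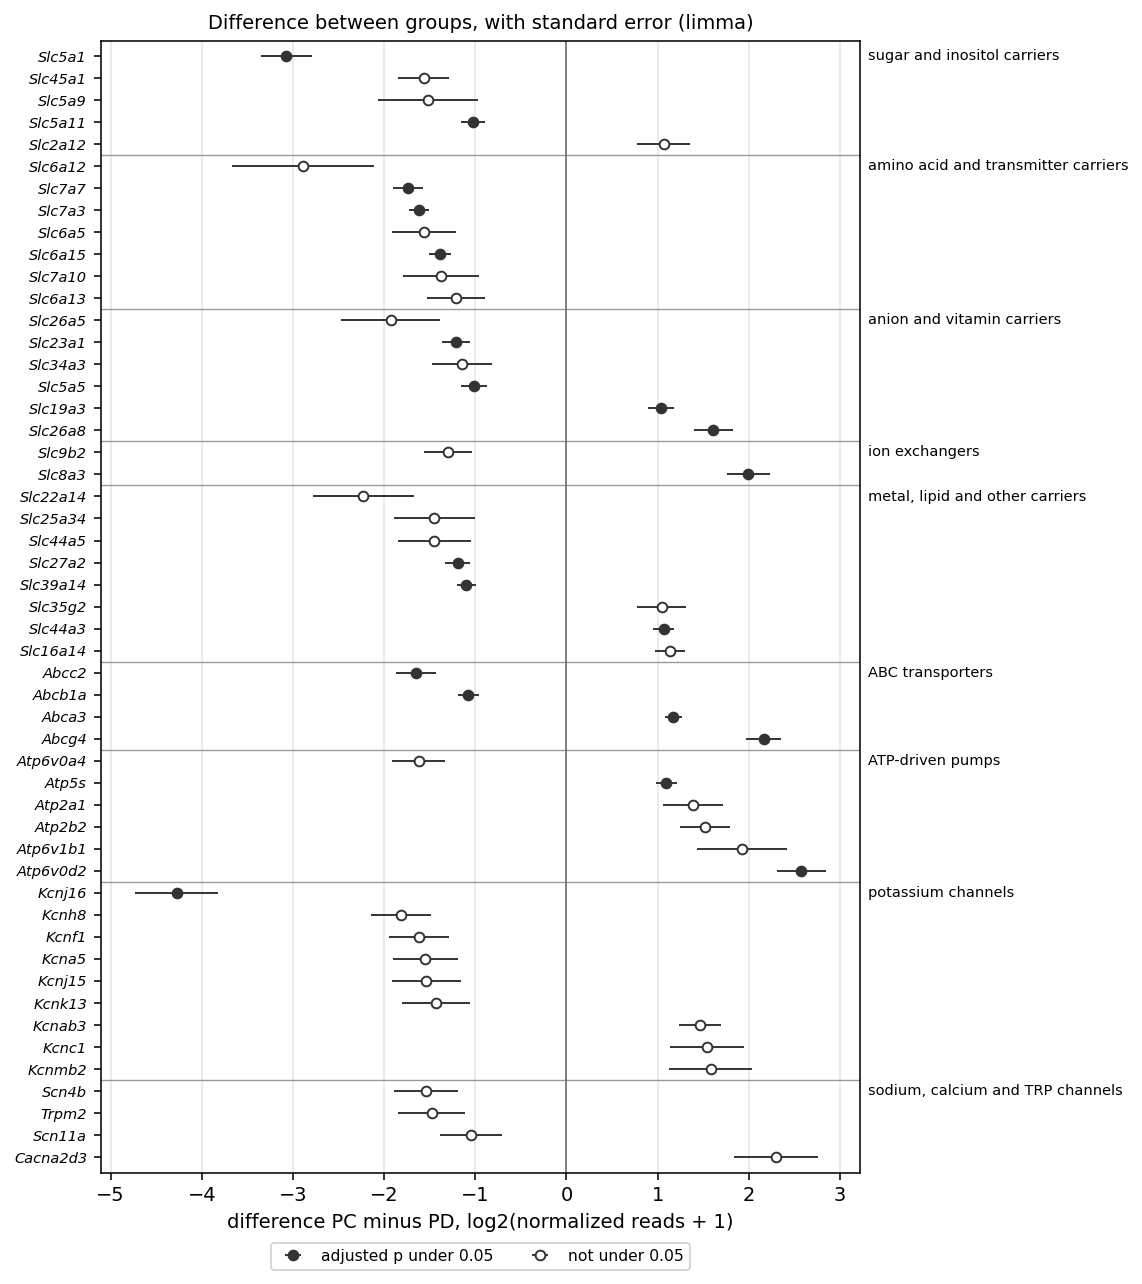
Difference PC minus PD on the log2(normalized reads + 1) scale with its standard error for 51 of the 52 genes, filled where the limma adjusted p was under 0.05. The 7 amino acid and transmitter carriers lie left of 0, 5 of the 6 Atp genes shown right of it, and the fitted value of Kcnj16, at 0 reads in PC, is no measure of its size.

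By the annotation deposited in the table, 41 of the 52 genes belong to the plasma membrane, against 343 of all 1593. Of the 16 annotated to sodium ion transport 14 were lower and 2 higher. In this set 5 fell, Slc5a1, Slc5a11, Slc5a5, Slc6a15 and Slc23a1, and 2 rose, one of them Slc8a3. Of all 25 listed genes with this annotation 18 were lower and 7 higher. Calcium ion transport held 5 of the 52, 4 of them higher, where Slc8a3 passed. Among all 22 listed genes with that annotation 7 were higher and 15 lower. Amino acid transport held 9 of the 52, 8 of them lower and 1 higher. The higher one was Slc19a3, which rose. Among all 13 listed genes annotated to amino acid transport 2 were higher and 11 lower. Each of the families SLC5 (4 genes), SLC6 (4) and SLC7 (3) had only lower values among the 52, with 3, 1 and 2 genes called. Their genes were already counted in the carrier groups above. Beside all these sets, 61.5% of all listed genes were lower, 19.8% fell and 11.2% rose.

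Genes of channels and some related proteins with other symbols, from a list of 93 drawn up for this comparison, showed changes in both directions. Of these 11 were listed, 5 higher and 6 lower, and 3 rose and 3 fell. Those that rose include Ucp2, a carrier and not a channel. Over all listed genes 11.2% rose and 19.8% fell. Receptors gated by extracellular ATP split: P2rx7 fell from 1871.5 and 1608 normalized reads in PD to 658 and 578 in PC (log2 change -1.49, SE 0.13, limma adjusted p = 0.0142), while P2rx4 rose from 394 and 408 to 899 and 1015 (log2 change 1.25, SE 0.11, limma adjusted p = 0.0145) and P2rx3 from 51.4 and 51.3 to 154 and 176 (log2 change 1.66, SE 0.20, limma adjusted p = 0.0281). Ucp2, a mitochondrial carrier, rose from 6254 and 6579 to 13849.7 and 18279 (log2 change 1.31, SE 0.15, limma adjusted p = 0.0247). Cnga3, a cyclic nucleotide-gated channel of cone cells, fell from 787 and 718 to 316 and 305.7, and Ryr3, a calcium release channel, from 528 and 539.8 to 260.1 and 270.04.

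Exons of 13 of the 52 genes overlap those of another gene in GENCODE M21, and no source used here gives the strand setting of the counting. Among called genes these are Slc27a2 (419 bases, Gm26697), Slc7a7 (232 bases, Oxa1l), Abcb1a (553 bases, Gm42686), Abca3 (914 bases, D330041H03Rik) and Slc44a3 (349 bases, A530020G20Rik), in each case on the opposite strand. If the counting ignored the strand, reads of these partners cannot be told apart from theirs. The 9 genes that missed a false discovery rate of 0.05 in the authors' deposited table were all lower in PC and had at most 61 reads in a library.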

How the data were processed

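RNA sequencing of 4 libraries was analysed, 2 PD and 2 PC, grouped by the labels' titles. The deposited table holds log2 values per library: per the values, 100% were the log2 of a whole read count (tolerance 0.001 reads) divided by a size factor, plus 1. Size factors were 1.03 and 1.09 in PD and 1.21 and 0.841 in PC. The p-values and false discovery rates are the authors' own, per the file headers. Bowtie 0.12.2 and mm9 appear, with no role, in the submitters' processing notes. No source used here gives the counter, annotation or test. Because the authors listed genes by fold and p, the spread was estimated on selected genes.

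Values of log2(value + 1) were fitted with limma (3.58.1, under R 4.3.3) for genes with a mean of at least 1, with a trended prior and 2 residual degrees of freedom, and adjusted by Benjamini-Hochberg over 31432 tested genes, unlisted ones counted as having larger p. By the authors' p, the largest listed p ranked 8099 among the 31432, so some unlisted genes had smaller p than some of the 1593 listed. The limma adjusted p can therefore be too high. It can also be too low, because the spread was estimated on genes chosen by fold and p in these same libraries. The fit was tested on simulated data. log2 changes understate those of genes with few reads. Floors and intervals cover counting error only. Alternatives were pseudocounts, filters, an untrended prior, voom, a replicate block, no size factors and leaving out each library. The rule named called genes, genes at 0 in a group, the largest change and highest mean of each family, and whole families of 5 or fewer; the other genes described, and the windows shown, were added after their values were seen. The values of 1 of the 52 genes are not reported here, though counts include it. The genes, lists, families and motifs were chosen with earlier results of these data known. Gene positions come from GENCODE M21 by gene ID, which matched all 52, and promoter windows from RefSeq. Chi-square per degree of freedom between libraries of a group was 7.03 in PD and 6.57 in PC, so none were copies.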

Additional observations from a re-analysis of the deposited data

How the results depend on the processing

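The 495 calls over all listed genes (179 higher, 316 lower) and the 21 among transporters and channels (9 and 12) stayed within 1.5 times with pseudocounts of 0.1 (417 and 15) and 10 (604 and 24), without a filter (495 and 21), with a filter at a mean of 10 (585 and 26) and with voom (661 and 25). No direction of the 52 genes reversed in any of these or the following fits. Beyond the 21, voom called Slc45a1, Slc16a14, Atp2b2 and Kcnab3. An untrended prior left 1 call over all genes, 1 higher and 0 lower, and 0 among the 52, 0 higher and 0 lower (limma, with 51 at an unadjusted p under 0.05, and 25 called by voom); the cause was not tested. Reads without size factors gave 64 calls, 24 higher and 40 lower, and 1 among the 52, 0 higher and 1 lower, since the libraries then share no scale.

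With a library left out, calls ranged from 33 to 61 over all genes (1 to 33 higher, 0 to 60 lower) and from 0 to 1 among the 52 (0 higher, 0 to 1 lower), where the 1 was Kcnj16 without PD replicate 1 or PD replicate 2; fewer samples leave 1 residual degree of freedom. The labels do not pair the libraries, and deviations of same-numbered libraries had a correlation of -5.75e-05 across genes. A replicate block gave 1176 calls, 435 higher and 741 lower, and 35 among the 52, 13 higher and 22 lower. The block also leaves 1 residual degree of freedom, so these calls lean on the prior for the spread and add no support. The depth of the libraries is unknown, and 29 of the 52 genes had a mean under 100 normalized reads, of which 3 were called.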
